A study of Drosophila melanogaster with 4 samples.

Results

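Of the 8282 reproducible peaks of Eip78C-GFP, 994 (12%) had their summit 201 to 1000 bp upstream of the nearest protein-coding transcription start site (TSS). They were taken by position alone. Each peak stood at its summit, distances ran to the nearest start of any transcript of 13968 protein-coding genes, and summits within 1 kb of a head-to-head pair of opposite starts no more than 1 kb apart were left out. The peaks came from chromatin immunoprecipitation and sequencing (ChIP-seq) with an antibody against GFP, per the description of each sample, in whole Drosophila melanogaster of mixed sex at the white prepupa stage. All animals belonged to a transgenic line that stably carried Eip78C fused to GFP at its C-terminus, and 4 biological replicates formed the single group. No untagged or input sample was analysed here, no cell type can be told apart in whole animals, and the number of reads behind each list is unknown. The joint list, called the optimal set below, held the 8282 strongest peaks of a list called on the pooled replicates, and each replicate had a list of 30000 peaks, of which the 8282 strongest were used wherever replicates were compared. By the same rule these lists gave 1062, 1010, 1013 and 997 summits in replicates 1 to 4. Replicate 2 stood apart at the starts themselves, with 524 summits 0 to 200 bp upstream, against 654, 678 and 711 in replicates 1, 3 and 4.

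The Eip78C gene is switched on by the steroid hormone ecdysone and encodes an orphan nuclear receptor related to Rev-erb. Receptors related to Rev-erb bind a short core element with an A/T-rich stretch in front of it and mostly act as repressors. In flies the hormone pulse at the end of larval life starts puparium formation, and its receptor, a dimer of EcR and Usp, turns on a small set of early regulators that in turn control many late genes. Sequence shortly upstream of a start site belongs to the promoter-proximal region, which in compact genomes such as that of the fly often holds enhancers and the ends of neighbouring genes.

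The sequences at the strongest of these summits show what the regions look like. Of the 8 strongest, 5 are given as 151 bases centred on the summit, 5′ to 3′ on the strand of the gene, from the RefSeq assembly of dm6. They come from chr3R:11760971-11761121 at Lk6, chr3R:28326519-28326669 at larp, chrX:2137254-2137404 at ph-p, chr2L:7188547-7188697 at CG4496 and chr2L:4997579-4997729 at Rtnl1, all on the minus strand.
Lk6: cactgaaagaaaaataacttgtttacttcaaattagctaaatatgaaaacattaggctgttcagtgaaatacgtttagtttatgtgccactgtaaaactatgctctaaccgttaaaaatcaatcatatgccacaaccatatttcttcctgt
larp: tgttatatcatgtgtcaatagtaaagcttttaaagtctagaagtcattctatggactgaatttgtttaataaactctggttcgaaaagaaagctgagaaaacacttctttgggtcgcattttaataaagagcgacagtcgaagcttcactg
ph-p: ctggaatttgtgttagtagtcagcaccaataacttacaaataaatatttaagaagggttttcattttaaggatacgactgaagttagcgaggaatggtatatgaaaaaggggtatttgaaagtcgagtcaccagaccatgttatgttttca
CG4496: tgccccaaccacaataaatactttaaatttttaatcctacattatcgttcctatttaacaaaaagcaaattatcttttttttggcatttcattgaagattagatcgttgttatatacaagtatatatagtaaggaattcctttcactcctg
Rtnl1: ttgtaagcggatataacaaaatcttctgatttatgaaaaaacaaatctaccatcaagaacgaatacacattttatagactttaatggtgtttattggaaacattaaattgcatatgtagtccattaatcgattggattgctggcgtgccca
Capitals mark any match on either strand to the nuclear receptor core AGGTCA, to GAGAG, to GATAAG or to CACAGTGG. These 5 windows of 151 bases contain none. Their GC content lay between 27.8% and 34.4%. In the wider 200 bp window used for the motif shares below, 9 of the 20 strongest peaks held GAGAG, that of Lk6 among them.

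Further windows carry such matches or belong to genes of the ecdysone response and of cell death. E23 lies at chr2L:3354978-3355128, Eip74EF at chr3L:17619479-17619629, hid at chr3L:18185855-18186005 and elav, a neuronal gene, at chrX:523423-523573, all on the minus strand. The windows of by, the tensin gene (chr3R:9533207-9533357, minus strand), and Msp300, a large nuclear envelope protein gene (chr2L:5108095-5108245, plus strand), carry the core AGGTCA, and those of Ptpmeg2 (chrX:9650919-9651069, minus strand) and prage (chrX:1830715-1830865, plus strand) carry CACAGTGG.
E23: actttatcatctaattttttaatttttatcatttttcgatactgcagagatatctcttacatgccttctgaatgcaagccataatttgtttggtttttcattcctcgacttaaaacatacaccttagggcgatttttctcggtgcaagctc
Eip74EF: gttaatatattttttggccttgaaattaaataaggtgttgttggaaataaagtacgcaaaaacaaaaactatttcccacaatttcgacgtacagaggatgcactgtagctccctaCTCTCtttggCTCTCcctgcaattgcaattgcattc
hid: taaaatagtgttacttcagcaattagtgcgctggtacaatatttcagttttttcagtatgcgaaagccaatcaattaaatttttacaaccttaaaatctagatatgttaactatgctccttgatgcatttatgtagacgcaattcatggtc
elav: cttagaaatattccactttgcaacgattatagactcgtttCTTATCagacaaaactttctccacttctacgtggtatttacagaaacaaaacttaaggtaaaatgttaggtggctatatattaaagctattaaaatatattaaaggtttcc
by: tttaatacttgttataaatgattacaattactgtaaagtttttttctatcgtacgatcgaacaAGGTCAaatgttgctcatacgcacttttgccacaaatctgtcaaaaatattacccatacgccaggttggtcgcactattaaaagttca
Msp300: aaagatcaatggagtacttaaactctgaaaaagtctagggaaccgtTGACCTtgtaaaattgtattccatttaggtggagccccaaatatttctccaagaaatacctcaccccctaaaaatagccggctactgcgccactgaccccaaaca
Ptpmeg2: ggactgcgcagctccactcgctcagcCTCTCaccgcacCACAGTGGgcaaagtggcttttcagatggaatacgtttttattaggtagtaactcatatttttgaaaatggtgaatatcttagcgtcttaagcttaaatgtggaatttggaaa
prage: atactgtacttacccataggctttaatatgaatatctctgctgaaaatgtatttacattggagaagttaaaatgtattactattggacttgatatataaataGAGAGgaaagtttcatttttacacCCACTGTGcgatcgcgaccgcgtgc
Both of these windows with CACAGTGG also held GAGAG, while the window at the farther summit of by, 480 bp upstream, held CACAGTGG alone. The Eip74EF window held GAGAG at 2 places and the elav window GATAAG, while the E23 and hid windows held none of these words.

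Summits crowded towards the start site. The 994 distances had a median of 394 bp, with quartiles of 286 and 579 bp. Per megabase of sequence that meets the same rule, the replicates' own lists held 263 ± 8.10 summits at 201 to 300 bp (SD, n = 4), 193 ± 14.2 at 301 to 400 bp, 148 ± 12.5 at 401 to 500 bp and 103 ± 7.47 at 501 to 600 bp. From 701 bp on the density stayed between 56.9 and 68.2 per Mb, and 1001 to 2000 bp upstream held 67.6 ± 3.19 per Mb. The 765 summits between 201 and 600 bp were denser than the 229 between 601 and 1000 bp by a factor of 2.58 ± 0.0920 (mean of the replicates, SD, n = 4). The decline joins a maximum nearer the start, since 101 to 200 bp upstream held 311 ± 26.8 summits per Mb.

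**Figure D1:**
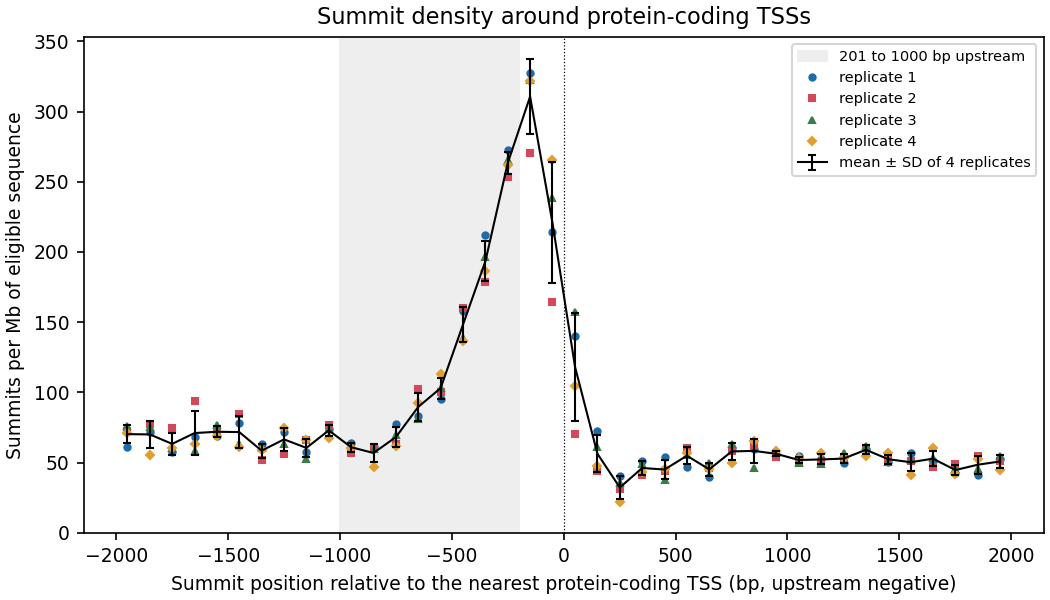
Summits per megabase of eligible sequence in 100 bp bins from 2000 bp upstream (negative) to 2000 bp downstream of the nearest protein-coding TSS, with summits near head-to-head pairs left out; coloured points are the 4 replicates' 8282 strongest peaks, and the black line gives their mean ± SD. The shaded stretch falls from 263 per Mb at 201 to 300 bp to 61.0 per Mb at 901 to 1000 bp, while the same distances downstream stay under 60 per Mb.

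The upstream side held more summits than the mirrored stretch inside the gene. At 201 to 1000 bp upstream the replicates had 129 ± 3.62 summits per Mb, against 49.1 ± 1.27 per Mb at 201 to 1000 bp downstream, a ratio of 2.64 ± 0.0240 (SD, n = 4). The ratio lay between 2.61 and 2.66 in the single replicates, and the ranges of both sides did not overlap. Downstream sequence holds more exons, so the sides were also set against each other in introns alone, a choice made after the data were seen. Intronic sequence held 215 ± 4.29 summits per Mb upstream and 105 ± 2.13 per Mb downstream. The 4 replicates again did not overlap.

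Coding exons were nearly empty of summits. Of the eligible bases 13.1% are coding, yet none of the 994 summits lay in a coding exon, which allows a share of up to 0.302% (3 counts, counting error only). By the same rule replicates 1 to 4 had 0, 4, 1 and 0 summits in coding exons. The other 7288 optimal peaks had 32. Introns took 503 of the 994 summits (50.6%) where they make up 29.7% of the eligible bases, and intergenic sequence took 433 (43.6%) where it makes up 42.6%. The 3′ UTRs of neighbouring genes make up 10.2% of the bases and took 19 summits, 5′ UTRs took 13, and the remaining 26 lay in other exons. In the replicates 49.2% ± 0.726 of the summits were intronic and 44% ± 0.491 intergenic (SD, n = 4).

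**Figure D2:**
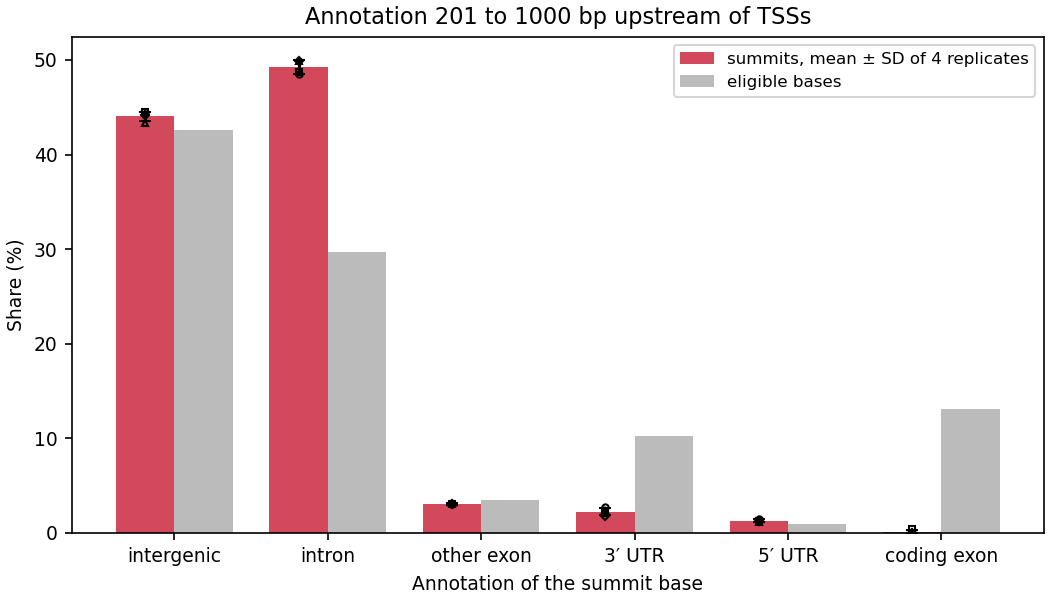
Share of summits 201 to 1000 bp upstream of a TSS (red, mean ± SD of 4 replicates, open symbols are the replicates) and share of eligible bases (grey) by the annotation of the base at the summit. Introns hold 49.2% of the summits and 29.7% of the bases, and coding exons hold 13.1% of the bases and almost no summits.

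The intronic summits were mostly upstream of alternative start sites. In 439 cases (44.2%) the summit lay inside the gene whose start it preceded, and 419 of these lay in an intron. By definition such a start is not the gene's first. They stood a median of 5636 bp from the beginning of the gene, with quartiles of 1968 and 16762 bp. The 820 genes involved are 5.87% of all protein-coding genes, and 61.1% of the 820 have several annotated start positions, while 26.5% of all protein-coding genes do. Genes with many starts offer more eligible sequence, and these shares were not compared at equal sequence. Outside their own gene, a further 100 summits lay inside another protein-coding gene, 55 of them on the opposite strand and 45 on the same strand, and 22 lay only inside a non-coding gene.

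Between genes, the upstream neighbour pointed the same way in 255 of the 433 intergenic cases (58.9%) and away in 178, where the opposite start was more than 1 kb from the gene's own. A non-coding gene started nearer to the summit than the protein-coding one in 50 cases (5.03%), namely 42 non-coding RNA genes, 4 tRNA genes, 2 small nucleolar RNA genes and 2 pseudogenes. Intergenic summits had a median rank of 3603 ± 146 in the replicates (SD, n = 4), those inside their own gene 3328 ± 173 and those inside a gene on the opposite strand 2687 ± 243. The last ranged from 2377 to 2936 over the replicates, so these 55 ranked ahead of both others in each replicate. The 45 inside another gene on the same strand had 4230 ± 605 and the 22 inside non-coding genes alone 4144 ± 256.

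Some of these starts also had a summit close by. Of the 994 summits 91 (9.15%) shared their start site with an optimal summit within 200 bp, and 226 (22.7%) belonged to a gene with such a summit at any of its starts. Over all protein-coding genes 9.94% had a summit within 200 bp of a start. This is a share of genes and not of summits, and genes with many starts have more places for such a summit. The 22.7% and the 9.94% are therefore not like for like. In the replicates the shares of summits with a companion at their own start and at any start of the gene were 9.60% ± 1.45 and 24.5% ± 3.06 (SD, n = 4). The 994 summits belonged to 923 different starts, and 71 starts had a pair of them. Paired summits were 199 to 726 bp apart with a median of 204 bp, and 199 bp was also the closest spacing of neighbouring summits in the whole optimal set. At E23, for example, summits lay 224 and 423 bp upstream within 1 interval, and in the same replicate peaks. At by they lay 271 and 480 bp upstream.

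The peaks upstream of starts ranked ahead of the other optimal peaks in all 4 replicates. Peaks were ranked by the authors' signal score, with 1 the strongest, and each optimal peak took the rank of the strongest replicate peak that overlapped it by at least 1 bp. The median rank of the 994 was 3266, 3438, 3422 and 3619 in replicates 1 to 4, against 4279, 4151, 4201 and 4245 for all other optimal peaks. The 994 stood ahead in each replicate, by 782 ± 166 ranks (SD, n = 4). A two-sided exact sign-flip permutation test over the 4 replicates gave p = 0.125, the smallest it can give, and an adjusted p of 0.167 (Benjamini-Hochberg over 16 tests), so no test of this kind could pass 0.05 here. Of the 994 peaks 75 share their interval with another and can share a replicate peak, so that its rank counts again.

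The same order was found against 3 other kinds of site. Median ranks averaged 3436 ± 144 for the 994, against 4149 ± 425 for summits 0 to 200 bp upstream, 4591 ± 122 for summits 1 to 1000 bp downstream and 4369 ± 99.2 for intergenic summits 1 to 10 kb from a start (SD, n = 4 each). The 994 ranked ahead in 4 of 4 replicates in all 3 comparisons (exact sign-flip permutation test, p = 0.125 and adjusted p = 0.167 each). The difference from summits within 200 bp varied most, and these ranked 4687 in replicate 2 and 3673 in replicate 4. It averaged -713 ± 516 ranks over 4 replicates and -534 without replicate 2. At the top of the lists, 20.1% ± 0.944 of the 994 were among the 1000 strongest peaks of a replicate. The share was 17.5% ± 1.50 for summits within 200 bp upstream and 13.5% ± 0.716 for downstream summits. It was 9.47% ± 0.405 for the intergenic ones and 12.1% ± 0.0571 for all other optimal peaks. In the optimal set 15 of the 100 strongest and 177 of the 1000 strongest peaks were of this kind. The 994 make up 12.0% of that whole set.

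**Figure D3:**
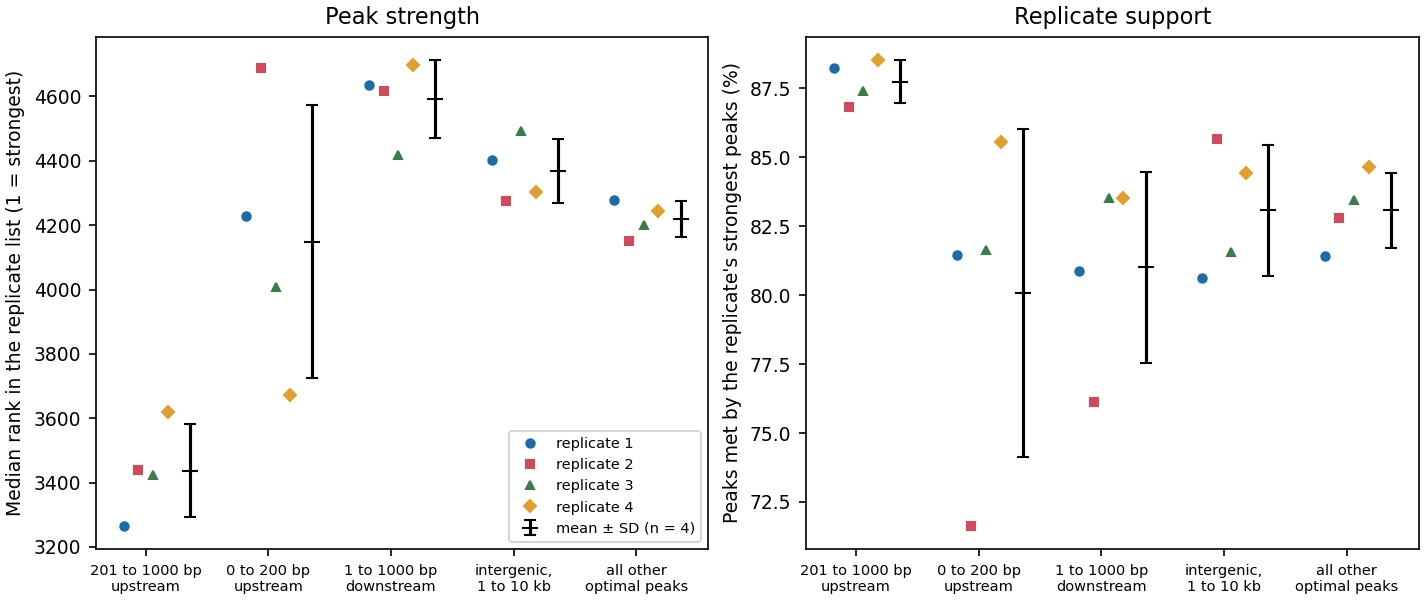
Median replicate rank (left, 1 is the strongest, so lower is stronger) and share of peaks met by a replicate's 8282 strongest peaks (right) for summits 201 to 1000 bp upstream, 3 other kinds of site and all other optimal peaks; symbols are the 4 replicates and black bars the mean ± SD. The 994 peaks average a rank of 3436 and a share of 87.8%, ahead of each other class in every replicate.

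Each replicate met a larger share of these peaks than of the others. A peak was met where its replicate rank was 8282 or better. The share therefore reads the same ranks at a cutoff and is no separate result. A replicate's strongest peaks overlapped 88.2%, 86.8%, 87.4% and 88.5% of the 994 in replicates 1 to 4, against 81.4%, 82.8%, 83.5% and 84.7% of all other optimal peaks. The share was higher in 4 of 4 replicates, by 4.67 ± 1.44 percentage points (SD; exact sign-flip permutation test, p = 0.125, adjusted p = 0.167). It averaged 87.8% ± 0.777 for the 994, against 80.1% ± 5.94 within 200 bp upstream, 81.0% ± 3.47 downstream and 83.1% ± 2.37 for intergenic sites. Without replicate 2 the difference from summits within 200 bp upstream was 5.17 percentage points, and with it 7.67. All 4 replicates met 685 of the 994 (68.9%), where 61.1% of all 8282 optimal peaks were met by all 4. Of the others 166 were met by 3 replicates, 108 by 2 and 35 by 1. In the full lists of 30000 peaks the advantage over intergenic sites was absent, with 98.7% ± 1.22 of the 994 met and 99.3% ± 0.540 of the intergenic sites. Summits of overlapping replicate peaks were a median of 26.8 ± 0.957 bp from the optimal summit, against 21.0 ± 1.83 bp for summits within 200 bp upstream.

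Strength did not follow distance within the stretch. Median ranks ranged from 2790 ± 316 at 601 to 700 bp to 3898 ± 451 at 901 to 1000 bp (SD, n = 4), with 3348 ± 170 nearest the start at 201 to 300 bp. Neighbouring bins of 100 bp overlapped over the replicates, apart from 501 to 600 bp and 601 to 700 bp. The 20 summits at 201 to 205 bp had a median rank of 3951 and the 19 just outside the limit, at 196 to 200 bp, one of 2215. At the far limit 7 summits at 994 to 1000 bp had a median rank of 3408 and 5 at 1003 to 1007 bp one of 3142. The nearest to the limits were Tsp5D (rank 2192), dre4 (3741), CG3699 (4828) and CG34445 (7208), each 201 bp upstream, and Chd64 (6875), 1000 bp upstream.

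Each replicate placed the strongest single peaks near the head of its own list. Lk6, the gene of a kinase that phosphorylates the translation factor eIF4E, had its summit in its own intron, 967 bp upstream of an inner start. The peak (FBgn0017581, chr3R:11760820-11761438) ranked 6 of 8282 with a score of 3461, and 10, 6, 6 and 6 in replicates 1 to 4. larp, which encodes an RNA-binding protein of the La-related family, had a summit 330 bp upstream of an inner start. Its peak (FBgn0261618, chr3R:28326300-28326890) ranked 7, and 6, 7, 8 and 11 in the replicates. Both peaks stayed among the 11 strongest everywhere.

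Regulatory genes among the 20 included ph-p, HmgZ, Sox14 and cbt. ph-p, a subunit of a Polycomb repressive complex, ranked 27, and 64, 16, 24 and 19 in replicates 1 to 4. HmgZ, a high mobility group protein gene, ranked 30, and 34, 28, 30 and 31. Sox14, an ecdysone-induced transcription factor gene, ranked 58, and 114, 44, 98 and 47, with its summit between genes and 240 bp upstream. HmgZ kept nearly the same place throughout, while ph-p and Sox14 were weaker in replicate 1 than in replicates 2 and 4. cbt, a zinc finger gene nested in ush, ranked 89, and 105, 86, 100 and 94.

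Enzyme and membrane protein genes named here are Lpin, Rtnl1 and cu. Lpin, which makes the phosphatidate phosphatase of fat storage, ranked 49, and 27, 87, 36 and 61 in replicates 1 to 4. Rtnl1, which shapes the endoplasmic reticulum, ranked 54, and 72, 46, 53 and 68. cu, a gene of the nocturnin family, ranked 92, and 30, 147, 95 and 185, with a mean of 114 ± 67.2 (SD, n = 4), the largest SD among the 20. The rest were CG1888 (rank 28), CG4496 (32), chif (68), ds (76), papi (90), CG46429 (95), CG5758 (101), Reph (104), CG8036 (113), Ptpmeg2 (116) and prage (119). None of the 20 fell below rank 218 in any replicate. Of their summits 15 lay inside their own gene, 4 between genes and 1 only in another gene. The summits of HmgZ, chif and CG8036, inside their own gene, also lay inside HmgD, Hyls1 and p.

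**Figure D4:**
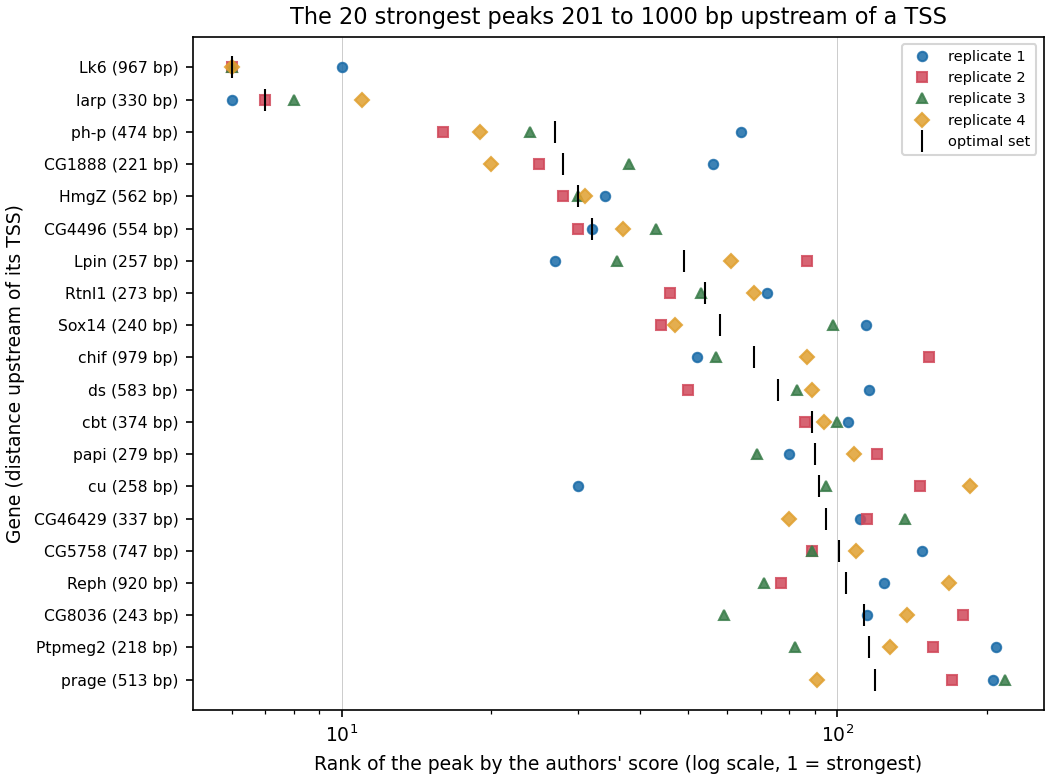
Ranks of the 20 strongest peaks 201 to 1000 bp upstream of a start, by gene with the distance in bp; coloured symbols are the 4 replicates, black bars the optimal set, and the rank axis is logarithmic. Lk6 and larp stay within rank 11 in each replicate, and the lowest replicate value, 218, belongs to prage.

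The 994 summits lay at 820 protein-coding genes, and 678 of these had a single one. Of the others 115 had 2, 22 had 3 and 5 had 4. The 5 were Rtnl1 (ranks 54, 735, 1640 and 1907), the cAMP phosphodiesterase gene dnc (257, 1004, 2340 and 7305), CG43658 (226, 1179, 1578 and 3304), the supervillin gene Svil (575, 1015, 2498 and 2839) and NFAT (1288, 2225, 3095 and 7446). Each spread its summits over 2 to 4 alternative starts of the 3 to 16 annotated for it.

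Hormone response genes had such summits at 9 of 30 listed members, where 5.87% of all protein-coding genes had one. The list does not hold Sox14, described above. In the replicates the count was 11, 10, 11 and 10. The strongest of the 30 was at E23, an ecdysone-induced ABC transporter gene, with rank 217 and 96, 351, 172 and 381 in replicates 1 to 4. Blimp-1, a zinc finger repressor gene that times pupal development, had 3 summits, the strongest of rank 1316 and 1406, 1166, 1070 and 1819. All replicates held both peaks among their 2000 strongest.

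Early genes of the list had peaks of lower rank than E23. Eip74EF, an ETS factor gene, had a summit 229 bp upstream of rank 2413, and 4576, 4458, 1322 and 1988 in the replicates. Eip75B, the gene of the other Rev-erb type receptor of the fly, had summits 473 and 673 bp upstream of rank 2528 and 4937. EcR itself had 3 summits, the strongest of rank 4524, and 6434, 2842, 4415 and 6949. Eip63E, a cyclin-dependent kinase gene, ranked 2494, vri, a bZIP repressor gene, 3590 and ImpE2, an imaginal disc gene, 3592. Eip78C, the gene of the tagged receptor, had a summit 782 bp upstream of rank 6047, which was among the strongest 8282 peaks in 2 of 4 replicates. Of the 18 summits of the hormone list 16 were met by 4 replicates, where 68.9% of all summits 201 to 1000 bp upstream were. E23, Eip63E, Eip75B, Blimp-1 and EcR each had 2 summits with the same rank in every replicate. Such summits shared their replicate peaks, so they are not separate cases.

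Nuclear receptor genes had such summits at 5 of 21 listed members, where 5.87% of all protein-coding genes had one. Within 200 bp of a start 4 of the 21 had a summit (19.0%), where 9.94% of all protein-coding genes did. Of the 5 genes 3 are also in the hormone list, and 6 of the 9 summits at the 5 genes were met by all 4 replicates. These 6 include the summits of Eip75B and of EcR that shared replicate peaks. Hnf4, a regulator of fat and sugar metabolism, led with rank 977 and 351, 1678, 1073 and 1558 in replicates 1 to 4. eg, which acts in neuroblasts, ranked 5242. Counts of 2 to 5 genes were found in several other lists. hid, the trigger of apoptosis in larval tissues, had a summit 289 bp upstream of rank 183, and 244, 159, 286 and 146, and Diap1, which inhibits apoptosis, one of rank 5006. These were 2 of 14 cell death genes, to be read beside the same 5.87%, and both peaks were met by all 4 replicates.

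Metabolic, clock and growth genes had peaks that ran from rank 49 to rank 6829. Lipid genes had 5 of 19 members with a summit, where 5.87% of all protein-coding genes had one. They were Lpin (rank 49), Fatp2 (1080), FASN1 (3172), Desat1 (5934) and mdy (5937), which act in fatty acid import, synthesis and storage. Clock genes had 5 of 12, led by the photoreceptor gene cry (rank 1520) and by vri, and including dco (4805), Pdp1 (5528) and per (6829). Insulin and growth genes had 4 of 20, among them sNPF (1149), foxo (3338) and InR (4529). Their counts over the replicates averaged 5.25 ± 1.50, 3.75 ± 0.957 and 3.75 ± 0.957 (SD, n = 4). No peak of the full list of replicate 1 overlapped that of dco. Within 200 bp of a start 7 of 19 lipid genes had a summit (36.8%), where 9.94% of all protein-coding genes did. Clock genes had 2 of 12 there, and insulin and growth genes 4 of 20.

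Tissue marker, patterning and immunity lists had a few genes each, to be read beside the 5.87% of all protein-coding genes. Neuron markers had 3 of 14 members (21.4%) with a summit, elav (rank 248), Syx1A (2696) and futsch (5990), and muscle markers 3 of 16 (18.8%), Zasp52 (1420), sls (1470) and Tm1 (3122). These 6 peaks were met by all 4 replicates. The summits of elav, Syx1A and Zasp52 lay inside other protein-coding genes, arg, eIF4EHP and tun. Fat body markers had 2 of 12, Lpin and FASN1, which the lipid list also holds, and no salivary glue gene of 11 had one. Patterning genes had 4 of 25 with weak peaks, dac (5358), N (5676), Antp (6553) and salm (7606), and innate immunity 3 of 22, dl (1307), Tak1 (6334) and spz (6482). All 4 replicates met 1 of these 4 patterning peaks and 1 of the 3 immunity peaks. Disc and matrix genes had Timp (1748) and kay (3927) of 20, contractility genes dia (4118) of 20, heat shock genes Hsc70-3 (6775) of 21 and Rab genes Rab8 (5377) of 36. None of 22 autophagy genes had one.

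Ribosomal protein genes had their summits at the start itself. Of 92 ribosomal protein genes 1 had a summit 201 to 1000 bp upstream, RpL27A at 202 bp (rank 7726), while 61 (66.3%) had one within 200 bp of a start, where 9.94% of all protein-coding genes did. Counts within 200 bp take both sides of a start and keep summits near head-to-head pairs. The upstream counts leave such summits out, so the counts differ in more than distance. Contractility genes had 1 of 20 upstream and 7 of 20 within 200 bp. Mitochondrial ribosomal protein genes had 0 of 73 upstream and 8 of 73 within 200 bp (11%), near the share of all genes. Cuticle genes had 5 of 123 upstream, led by Cpr72Eb (rank 711), Cpr62Ba (2820) and Cpr47Ed (3702), and 1 of 123 within 200 bp. Neuron markers had 3 of 14 upstream and 0 within 200 bp. Chemosensory receptor genes had 2 of 179, Ir94h (1865) and Ir94f (6926), and 0 within 200 bp. These lists are described by their counts, with no test, and a gene with many starts offers more eligible sequence, for which the counts are not adjusted.

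The summits sat in a narrow trough of GC content. In 100 bp windows the mean GC content was 33.6% ± 0.662 at the summit (SD, n = 4), and 44.7% ± 0.233 and 44.3% ± 0.254 at 300 bp to its left and right. At 1000 bp to the left it was 42.4% ± 0.0551. Summits within 200 bp upstream of a start had a shallower trough, with 38.5% ± 0.762 at the summit, and intergenic ones a slightly deeper one, with 32.9% ± 0.668. Median GC content of 200 bp windows was 33.8% ± 0.645, against 37.8% ± 1.19 within 200 bp upstream, 38.6% ± 1.01 downstream, 34.4% ± 0.629 for intergenic sites and 34.9% ± 0.250 for all other optimal peaks. It was lower in 4 of 4 replicates in each comparison (exact sign-flip permutation test, p = 0.125, adjusted p = 0.167). Against intergenic sites the order turns with the window, since the 100 bp mean is higher and the 200 bp median lower.

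**Figure D5:**
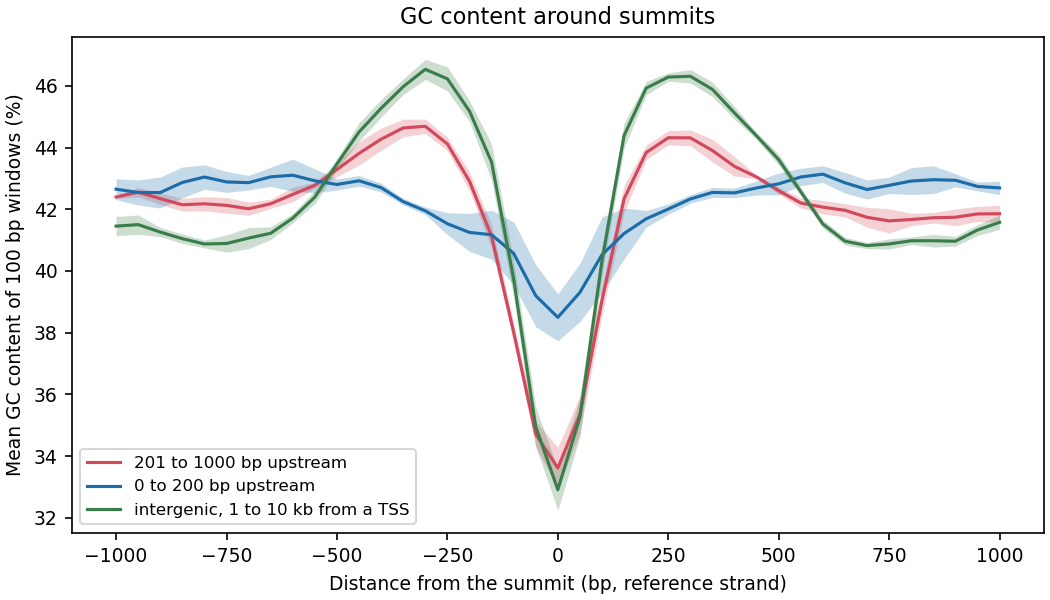
Mean GC content in 100 bp windows every 50 bp around summits, for summits 201 to 1000 bp upstream (red), 0 to 200 bp upstream (blue) and intergenic summits 1 to 10 kb from a start (green); lines are means of 4 replicates and bands ± SD. The red trough reaches 33.6% between shoulders of 44.7% and 44.3%, and the blue one 38.5%.

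The core nuclear receptor site AGGTCA was present at few summits. Within 200 bp centred on the summit it occurred on either strand at 47 of 994 (4.73%), against 4.28% of windows 500 bp to either side and 5.66% of windows centred 600 bp upstream of all protein-coding genes. In the replicates' own summits the share was 3.87% ± 0.168, against 3.69% ± 0.249 at all other summits (exact sign-flip permutation test, p = 0.25, adjusted p = 0.362 over 42 tests), so the difference was within the spread. Intergenic sites had 2.68% ± 0.364, a difference of 1.20 ± 0.284 percentage points higher upstream in 4 of 4 replicates (exact permutation p = 0.125, adjusted p = 0.25), and summits within 200 bp upstream had 3.41% ± 0.866. The summits of by and Msp300 printed above belong to these 47. The longer site of Rev-erb type receptors was searched only as AANT directly before AGGTCA, and other A/T-rich stretches before the core were not searched. In this form it occurred once, at CG6847 (rank 3407, 379 bp upstream). The site TCAAGGTCA of Ftz-F1 and the inverted repeat of EcR with Usp occurred at none. Among the 20 strongest peaks only that of Lpin had AGGTCA in its 200 bp window. A missing match says only that these letters are not in the window.

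Several words common near start sites were rarer here than within 200 bp of a start. TATCGATA, the DNA replication related element, occurred at 0.663% ± 0.0654 of the replicates' summits, against 4.79% ± 0.585 within 200 bp upstream. GGTCACAC, motif 1 of fly core promoters, occurred at 0.492% ± 0.123, against 3.38% ± 0.366, and CAGCTG, an E-box, at 6.18% ± 0.393, against 13.6% ± 0.600. Each was lower in 4 of 4 replicates (exact sign-flip permutation test, p = 0.125, adjusted p = 0.25 over 42 tests). Intergenic sites had 0.290% ± 0.103 for TATCGATA and 4.24% ± 0.167 for CAGCTG, and summits 201 to 1000 bp upstream were higher than these in 4 of 4 replicates (exact sign-flip permutation test, p = 0.125, adjusted p = 0.25). Over all promoter windows centred 600 bp upstream of protein-coding genes the shares were 1.11%, 0.816% and 9.01%.

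GATAAG was more frequent upstream than in the 3 sets set against it, in each replicate. It is the site of GATA factors and occurred at 11.7% ± 0.431 of the replicates' summits, against 9.59% ± 0.340 within 200 bp upstream, 8.52% ± 0.404 at intergenic sites and 9.77% ± 0.0672 at all other summits, and was higher in 4 of 4 replicates each time (p = 0.125, adjusted p = 0.25, exact sign-flip permutation test). Of the promoter windows 9.16% held it. GAGAG, held by 19.4% of promoter windows and bound by the GAGA factor and by CLAMP, stood in between, with 25.8% ± 1.33, against 33.5% ± 6.05 within 200 bp upstream and 18.9% ± 0.532 at intergenic sites. In the optimal set it was less frequent at the summits (26.0%) than 500 bp away (30.4%). TATAAA, the TATA box word, occurred at 36.5% of the 994 summits, against 21.2% 500 bp away and 22.2% of promoter windows. Other peaks had similar shares, with 37.5% of intergenic sites and 34.9% of all other optimal peaks. TATAAA and the low GC content move together here, and the part of base composition in its share was not tested. CACACACA showed the opposite pattern, with 2.31% at the summits, 8.30% 500 bp away and 3.19% of promoter windows. The E-box CACGTG occurred at 1.31% of the summits and 2.63% of promoter windows, the AP-1 site TGACTCA at 1.81% and 1.60%, and the Zelda site CAGGTAG at 0.604% and 1.35%.

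CACAGTGG was noticed in the data and is given without a test. It occurred within 100 bp of 52 of the 994 summits (5.23%), against 1.51% of windows 500 bp away and 0.673% of promoter windows. In the replicates the share was 5.42% ± 0.614, against 4.44% ± 0.878 within 200 bp upstream and 2.60% ± 0.140 at intergenic sites (SD, n = 4). Matches lay a median of 63 bp from the summit, and 17 of the 52 lay within 50 bp. Peaks with it had a median rank of 3103 ± 361 in the replicates and those without it 3454 ± 142, ranges that overlap. Of the 994 summits 177 were among the 1000 strongest optimal peaks, and 11 of these had the word (6.21%, against 5.23% of all 994). Ptpmeg2 and prage are among the 11.

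The X chromosome held more of these summits than its sequence share. It had 227 of the 994 (22.8%) with 17.4% of the eligible bases, while 18.5% of all other optimal peaks were on X. The replicates had 165 ± 6.67 summits per Mb on X, against 123 ± 3.90 per Mb on the large autosome arms, a ratio of 1.35 ± 0.0622 (SD, n = 4). The single ratios lay between 1.26 and 1.41. Ratios in other windows, added after the data were seen, were 0.952 ± 0.113 at 0 to 200 bp upstream, 1.36 ± 0.166 at 201 to 1000 bp downstream and 1.16 ± 0.134 at 1001 to 2000 bp upstream. Males and females were pooled, so X was present in fewer copies per animal than autosomes, and no read counts were at hand to set peaks against copy number. The arms 2L, 2R, 3L and 3R held 115.9 to 122 summits per Mb in the optimal set, and 5 summits lay on chromosome 4.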

How the data were processed

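ChIP-seq peak lists of 4 biological replicates and of the pooled replicates were deposited on dm6. The authors deposited for each peak a signal score on an unstated scale and −log10 of a q-value, which was 4.26 for all 8282 optimal peaks. Peaks were therefore ranked by the score. Per the texts deposited with the samples, each list derived from the alignments and a further file common to all replicates, and the joint set was thresholded by irreproducible discovery rate (IDR) from the lists of replicates 2, 3 and 4 and the pooled list. Replicate 1 was not among those sources. The sources used here do not give the aligner, caller, IDR threshold or read depth. All 8282 optimal peaks equalled the strongest of the pooled list. Fixed list lengths show no difference in the number of sites, and peak widths were largely set by a default (416, 380, 400 and 390 bp in replicates 1 to 4), so median widths were the same in each class. The lists on dm3 were not used.

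Summits were placed in 1-based dm6 coordinates on the Ensembl release 115 annotation (13968 protein-coding genes, 3677 head-to-head pairs). Bases were read from the RefSeq assembly. Each replicate's 8282 strongest peaks gave 1 value, and differences were tested within replicates by two-sided exact sign-flip permutation tests, adjusted by Benjamini-Hochberg within 16 tests of class values and 42 of motifs. The classes other than the 994 take summits 0 to 200 bp upstream (610), 1 to 1000 bp downstream (570) and intergenic 1 to 10 kb away (1074). Python 3.11.15, numpy 2.4.6, pandas 2.3.3 and scipy 1.17.1 were used. On simulated data 1000 of 1000 summits planted 201 to 1000 bp upstream were recovered, 403 of 403 windows with a planted motif were found, and the exact sign-flip permutation test reached its smallest p in 117 of 1000 simulated sets without a difference.

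The regions, gene lists and motifs were chosen with earlier results of these data known. Genes are named as the 20 strongest, up to 3 of each of 21 lists, those with most summits and those nearest the limits; other genes were named after their values were seen. Listed genes were matched by symbol or synonym, and 5 entries had no unique match or a duplicate. The values of 1 listed gene are not reported here. Overlap of at least 1 bp counted as met. Alternatives changed the definition of start sites, of pairs and of overlap, the list length, the window size and the replicates. The labels call the replicates biological without naming separate batches of animals, so p-values measure the spread between these samples. An alternative with the extra motif CACAGTGG, one with introns alone and one with X in other windows were chosen after seeing the data. The longer Rev-erb site searched was AANT directly before the core, and it is held by 0.107% of promoter windows 600 bp upstream, TCAAGGTCA by 0.172% and the EcR repeat, with 1 base between AGGTCA and TGACCT, by 0.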

Additional observations from a re-analysis of the deposited data

Results flagged for a closer look

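A value was singled out where 1 of 4 replicates stood far from the other 3, by Dixon's criterion at 95%. Chance marks about 1 in 20 groups of 4, and 8 of the 79 groups examined were marked. Replicate 2 had 1133 intergenic summits 1 to 10 kb from a start, against 996, 977 and 995 in replicates 1, 3 and 4. The share of summits with TATCGATA was 0.565% in 1 replicate and reached 0.702% in the others. The Lk6 peak ranked 10 in replicate 1 and 6 in the others, and the ph-p peak ranked 64 in replicate 1 and 16 to 24 in the others. The Fatp2 peak ranked 711 in replicate 2 and 1253 to 1301 in the others, and the Cpr47Ed peak ranked 2709 in replicate 3 and 4690 to 4733 in the others. Hsc70-3 had no overlapping peak among the 30000 of replicate 2, which was entered as rank 30001, and ranked 5407 to 6150 in the others.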

How the results depend on the processing

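The count of 994 was 600 with 1 start per gene and 555 of the 4141 strongest optimal peaks (13.4%). It was 966 to 1110 under the other definitions of pairs, starts and intervals. With 1 start per gene 7 gene list counts moved by more than 1.5 times, all downward. The lead of the 994 in rank kept its direction against all 4 comparison sets without 1 replicate at a time. It also did so in mean rank and in the share among the strongest peaks. The lead in replicate support kept its direction without 1 replicate at a time and under the other overlap rules and list lengths. The exception was intergenic sites in the full lists, where 4.67 percentage points became -0.559. Neither lead was recomputed with 1 start per gene or under the other definitions of pairs, starts and intervals. The size of the lead in support did not hold. Against all other peaks the 4.67 points were 0.967 at 50% overlap, 2.54 for summits within 100 bp, 0.276 in the full lists (p = 0.625, exact permutation test) and 8.66 for the strongest 4141. The share with a companion summit was 24.5% when any start of the gene counted. For AGGTCA the difference from all other summits of 0.18 percentage points was -0.589 in 100 bp and -0.0693 in 400 bp windows. For CACGTG it was -0.0179, became 0.262 in 400 bp windows and lay between -0.139 and 0.0695 without 1 replicate at a time (0.0695 without replicate 1, 0.0603 without replicate 4). The cause of these changes was not tested. Without 1 replicate at a time, the rank difference from all other peaks lay between -835 and -706 and the difference in support between 3.95 and 4.94 percentage points. With 1 group, no groups could be paired, and differences between kinds of site were taken within replicates. Read depth is unknown, 4 replicates cannot reach 0.05 in an exact permutation test, and no untagged control bounds the background.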
